A study of Mus musculus with 3 samples.

Results

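The results concern 8 compounds that inhibit receptors for vascular endothelial growth factor (VEGF) or platelet-derived growth factor (PDGF) and are not built on an oxindole ring. They occupied 9 wells of a DRUG-seq2 kinase inhibitor screen, a plate-based RNA-seq method that tags each well's transcripts with a barcode before pooling. The 9 wells were chosen by name out of 222 compound wells that the barcode lists place on 3 plates. The cells were embryonic fibroblasts of WT mice, taken from embryo. Each compound, from a commercial library, was given in CFAE+8 medium, which all wells used here share, the reference wells among them. The samples are labelled day 4. Plate 1 held NVP-ACC789, NVP-BAW2881 and SAR131675, plate 2 held apatinib, dovitinib (lactate) and masitinib (mesylate), and plate 3 held cediranib (maleate) and both regorafenib (hydrochloride) and regorafenib (monohydrate). The reference on each plate was all its other compound wells, 209 in total after wells below 10% of the plate's median total count were left out. Plate 3 also held 5 wells named bC8FAE, a name with no compound in it that the labels do not explain. No dose is given in the labels, no well is named as vehicle, and each compound had 1 well except regorafenib, which had 1 per form. A lone well was therefore assumed to vary like the other wells of its fit. The labels do not say whether wells came from separate cultures, so p-values measure only the spread between wells, which may be technical.

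VEGF receptors are tyrosine kinases that drive the growth of blood and lymphatic vessels, while PDGF receptors act mainly in fibroblasts and mural cells, where their ligands stimulate division and migration. Both pass signals through RAS, RAF, MEK and ERK, and active ERK raises the transcription of early growth genes and of its own inhibitors. Several of the 8 drugs also act on other kinases: dovitinib, a quinolinone carrying a benzimidazole, inhibits FGF receptors, regorafenib, a diaryl urea and fluoro analogue of sorafenib, inhibits RAF kinases, masitinib is an aminothiazole directed at KIT and PDGF receptors, cediranib is a quinazoline joined to an indole through oxygen, and apatinib is a nicotinamide directed at VEGFR2. NVP-ACC789, NVP-BAW2881 and SAR131675 are known as VEGF receptor inhibitors.

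The wells' total counts were 419867 for NVP-ACC789, 419063 for NVP-BAW2881 and 307538 for SAR131675, against a plate 1 median of 318166. They were 517167 for apatinib, 711507 for dovitinib and 288231 for masitinib, against a plate 2 median of 606767. They were 346170 for cediranib, 222067 for regorafenib hydrochloride and 243890 for regorafenib monohydrate, against a plate 3 median of 433274. The mean log2 ratio to the plate median was -0.27 over the 9 wells and -0.22 over all other compound wells. This difference lay within the spread of all compound wells (permutation test within plates, 100000 resamples, two-sided p = 0.88). That mean and spread include the wells left out elsewhere: FRAX486 (1.62% of its plate's median), CDK-IN-2 (0.527%), FLLL32 (0.952%) and LY2857785 (0.814%). Such wells lower the mean and widen the spread, and the test was not run without them. Of 28 fibroblast markers 27 had counts in each plate's drug wells, Tcf21 being at 0. In CPM, which are counts scaled to a common total per well, their summed level was 7855 to 13412 in the 9 wells, within the range of the reference wells on each plate, which ran from 5542 to 22030 CPM over the 3 plates. Fewer cells of a type and less RNA per cell cannot be told apart in these wells.

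Transcripts of the VEGF receptors and of KIT were scarce in these fibroblasts. Kdr, which encodes VEGFR2, had 1 to 4 counts in every one of the 9 wells, Flt1, which encodes VEGFR1, had 0 to 2, and Flt4, which encodes VEGFR3, had 0 to 4. Kit and Flt3 had 0 counts in all 9. Pdgfra ranged from 6.50 CPM with SAR131675 to 33.7 CPM with dovitinib, and Pdgfrb from 27.0 CPM with regorafenib hydrochloride to 74.8 CPM with SAR131675. Fgfr1, an FGF receptor gene, had more counts than any of these, between 89.9 and 211 CPM. Its value of 89.9 CPM with dovitinib was the lowest of 87 compound wells on plate 2, just under the lowest reference well, and the regorafenib wells, at 94.6 CPM with the hydrochloride and 90.2 CPM with the monohydrate, ranked 37 and 39 from the top of 41 wells on plate 3. These CPM are not divided by transcript length, so they order wells and not genes.

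None of the receptor or ligand genes passed the adjusted threshold for the 8 compounds together. Of 9 receptor genes tested, 0 were called and 5 had a positive fold change, with a median log2 fold change of 0.02 beside -0.07 over all 7066 genes. Of 7 ligand genes, 0 were called, 1 was positive and the median was -0.19. Pdgfa, a PDGF chain, averaged a log2 fold change of -0.63 ± 0.24 (SE; unadjusted p = 0.0103) and Vegfb, a VEGFR1 ligand, -0.23 ± 0.11 (unadjusted p = 0.0396), with edgeR's quasi-likelihood test adjusted p of 0.214 for Pdgfa and 0.341 for Vegfb. Pdgfa was at 31.0, 21.5 and 22.8 CPM with NVP-ACC789, NVP-BAW2881 and SAR131675 (reference median 25.1), at 17.4, 29.5 and 13.9 CPM with apatinib, dovitinib and masitinib (31.9), and at 14.4, 22.5 and 36.9 CPM with cediranib, regorafenib hydrochloride and regorafenib monohydrate (33.5). In 7 of the 9 wells Pdgfa lay below the plate's reference median, and in 0 of them outside the range of the reference wells.

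Against all other compounds of their plate, the single wells gave almost no called gene. The calls use edgeR's quasi-likelihood test with Benjamini-Hochberg adjustment at an adjusted p under 0.05. NVP-ACC789, NVP-BAW2881 and SAR131675 gave 0 called genes of 6450, apatinib and masitinib 0 of 8275, and each regorafenib form 0 of 7143. Dovitinib gave 1 (0.0121% of the genes tested) and cediranib gave 1 (0.0140%). Genes with an unadjusted p under 0.05 numbered 698 for dovitinib (8.44%) and 594 for cediranib (8.32%). They were 402 (5.63%) for regorafenib hydrochloride and 331 (4.63%) for the monohydrate, 367 (4.44%) for masitinib and 218 (2.63%) for apatinib. They were 157 (2.43%) for NVP-ACC789, 128 (1.98%) for SAR131675 and 113 (1.75%) for NVP-BAW2881. DESeq2 called 0 genes for the 7 wells without a call.

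The gene called with dovitinib was Penk, on chromosome 4 (mm10, 4133531 to 4138819, minus strand), which encodes the enkephalin precursor. Penk stood at 967 CPM with dovitinib, the highest of 87 wells on plate 2, against 116, 332 and 794 CPM as the lowest, median and highest reference well. Its log2 fold change was 1.59 ± 0.30 (SE, 1 well against 84; adjusted p = 0.00655), and DESeq2 gave an adjusted p of 0.0542. Cediranib on plate 3 had 965 CPM, the highest of 41 wells, against reference wells at 110, 371 and 607 CPM, a log2 fold change of 1.42 ± 0.36 with an adjusted p of 0.173. The regorafenib wells had 549 CPM with the hydrochloride and 472 CPM with the monohydrate, ranks 3 and 9 of 41. The other wells ran from 143 CPM with NVP-BAW2881 to 434 CPM with masitinib. Penk overlaps the opposite-strand transcript A830012C17Rik, which had 5 counts in the whole table, and no source used here says whether counting used strand.

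The gene called with cediranib was Ada, on chromosome 2 (mm10, 163726584 to 163750239, minus strand), which encodes adenosine deaminase. Ada stood at 101 CPM with cediranib, above every other well of plate 3, where reference wells had 7.45, 22.5 and 40.8 CPM as lowest, median and highest. Its log2 fold change was 2.23 ± 0.38 (SE, 1 well against 38; adjusted p = 0.00319) and it passed the threshold under all 7 alternatives tried. It was at 36.0 and 32.8 CPM with the hydrochloride and monohydrate of regorafenib, at 60.4 CPM with dovitinib and at 56.1 CPM with apatinib. With NVP-ACC789 it had a single count, the lowest of 90 wells on plate 1. Hspb8, which encodes a small heat shock protein, was not called for either drug but was the highest of its plate in both wells: 507 CPM with dovitinib against a reference maximum of 501 CPM, and 584 CPM with cediranib against 576 CPM (named after its values were seen).

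**Figure D1:**
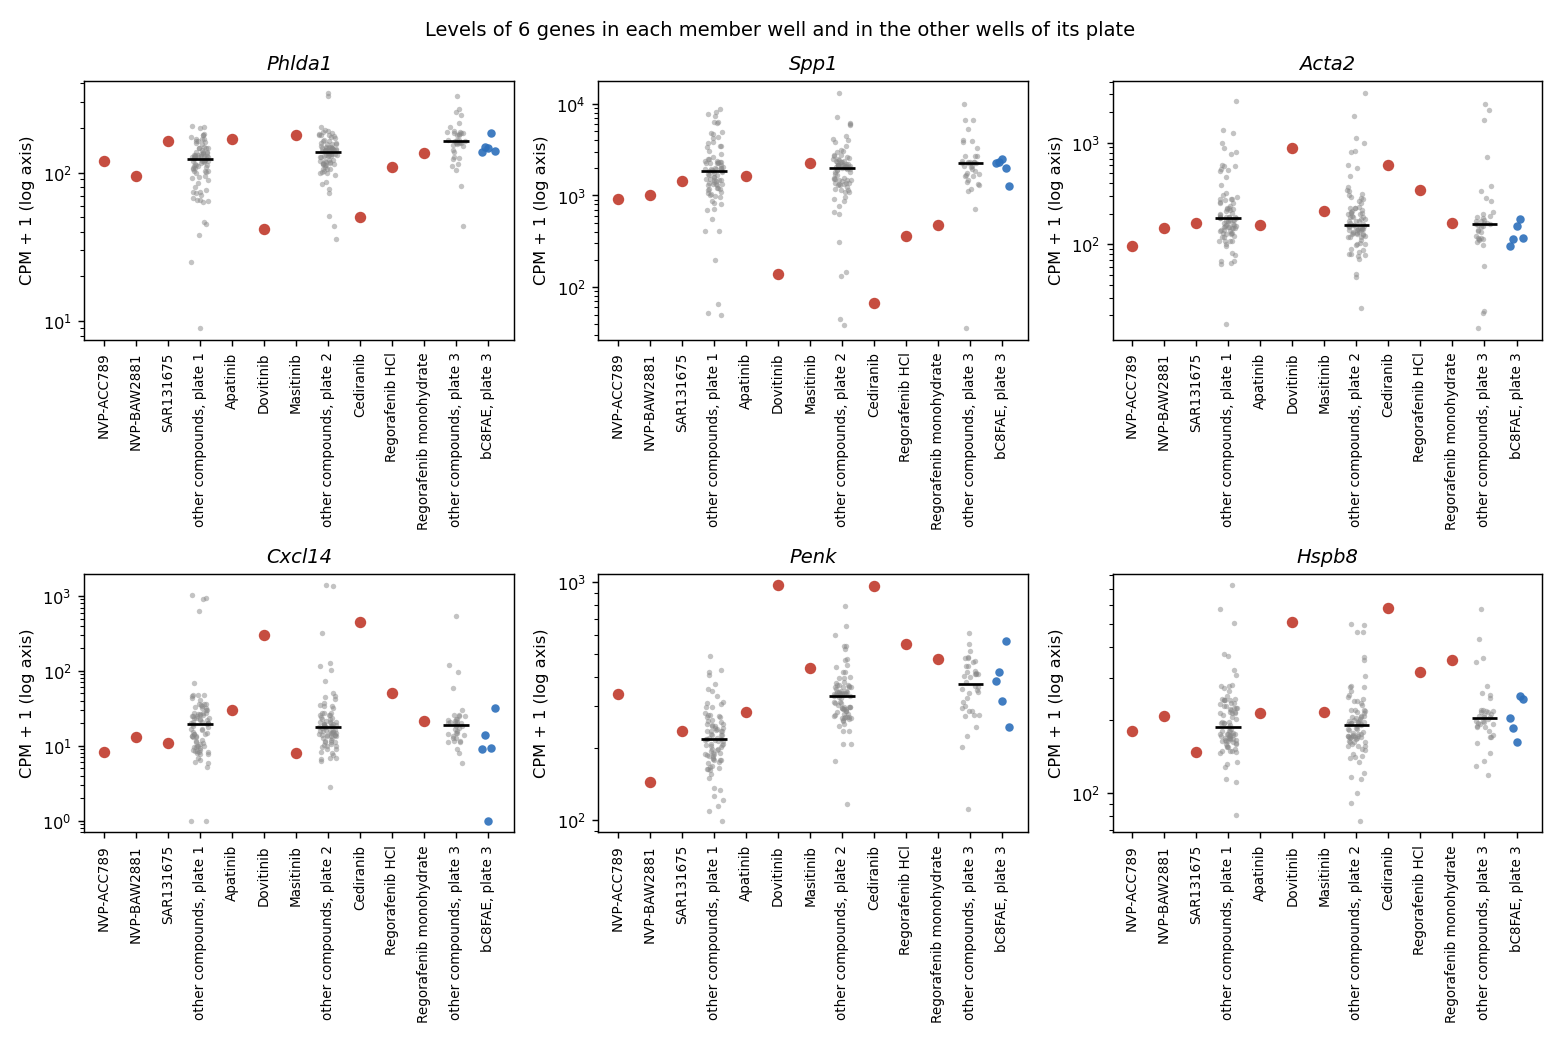
CPM plus 1 on a log axis for 6 genes, with 1 red point for each drug well, grey points for the other compound wells of the same plate (bar, median) and blue points for the bC8FAE wells. Penk and Hspb8 are highest on their plates with dovitinib and cediranib, whose Cxcl14 stands at 304 and 445 CPM, while Spp1 falls to 139 and 66.4 CPM in the same wells.

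Taken over the 8 compounds, each with equal weight and a term for the plate, 12 of 7066 genes (0.170%) passed the threshold, of which 1 was higher (0.0142%) and 11 were lower (0.156%). An unadjusted p under 0.05 was reached by 960 genes (13.6%), 802 of them lower. The higher gene was Traf3ip2, which encodes the adaptor Act1 of interleukin-17 receptors, with a log2 fold change of 0.74 ± 0.18 (adjusted p = 0.0347). Spp1, which encodes the secreted phosphoprotein osteopontin, averaged -1.92 ± 0.45 (adjusted p = 0.0336), Nefm, a neurofilament subunit, -1.62 ± 0.35 (0.0228), and Gch1, the first enzyme of tetrahydrobiopterin synthesis, -1.54 ± 0.35 (0.0301). Klhdc8a, a kelch domain protein, Alcam, a cell adhesion molecule, and Baiap2, an adaptor of actin remodelling, were lower, with log2 values between -0.63 ± 0.15 for Baiap2 and -1.02 ± 0.22 for Klhdc8a. Ptpre, a tyrosine phosphatase, Nemf, a factor of ribosome quality control, and Tyk2, a JAK family kinase, were also called lower but had 0 counts in some of the 9 wells, so that their fitted sizes are not given. Psme4, a proteasome activator called lower, had 1 to 3 counts in 6 of the 9 wells, where the ratio to the summed reference wells ran from 0.147 (95% counting interval 0.00371 to 0.821) with regorafenib monohydrate to 0.514 (0.106 to 1.51) with masitinib.

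These means joined unlike wells. Spp1 was at 66.4 CPM with cediranib, 360 CPM with regorafenib hydrochloride and 480 CPM with regorafenib monohydrate, ranks 40, 39 and 38 of 41, against a reference median of 2256 CPM. It was at 139 CPM with dovitinib, rank 84 of 87, beside 1640 CPM with apatinib and 2255 CPM with masitinib, against a reference median of 1996 CPM. On plate 1 it was at 924, 1019 and 1450 CPM with NVP-ACC789, NVP-BAW2881 and SAR131675, against a reference median of 1840 CPM. The lowest values thus belonged to 4 wells. NVP-ACC789, NVP-BAW2881, SAR131675 and apatinib lay below their plate's median by less, and masitinib lay above its own. Gch1 had the same wells at the low end: 11.6, 18.0 and 16.4 CPM with cediranib and the hydrochloride and monohydrate of regorafenib against a median of 102 CPM, and 11.2 CPM with dovitinib against 72.6 CPM. Apatinib had 40.6 CPM and masitinib 52.0 CPM. Traf3ip2 was at 121 CPM with cediranib, the highest of 41 wells, at 72.1 and 36.9 CPM with the hydrochloride and monohydrate of regorafenib, and at 47.8 CPM with dovitinib and 55.3 CPM with SAR131675. Without dovitinib 0 genes were called, without cediranib 0 and without regorafenib 2, whereas leaving out masitinib gave 30 and NVP-BAW2881 gave 22. Nefm and Nefl, Nemf and Klhdc2, and Traf3ip2 and E130307A14Rik overlap on opposite strands, so these values are uncertain.

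Against the oxindole inhibitors, the compounds closest in target (5 wells of 4 compounds: SU14813, toceranib in 2 forms, nintedanib and SU5402), the 8 compounds differed at 0 of 7066 genes, with 684 (9.68%) at an unadjusted p under 0.05 and a smallest adjusted p of 0.0737. DESeq2 called 2 genes. The oxindole inhibitors on their own had 258 called genes (3.65%) against the compounds in neither group, 91 higher (1.29%) and 167 lower (2.36%). That reference is not the one behind the 12 genes called for the 8 compounds, which held the oxindole wells. Between the 8 compounds and the oxindoles, Spp1 differed by a log2 value of 0.05 ± 0.64. Of 12 ERK target genes tested in this difference, 0 were called, 10 were positive and the median was 0.41, beside 0.02 over all genes.

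Genes that ERK activity raises were examined as a list of 12 tested in the 3-plate fit. For the 8 compounds together 0 of 12 were called and 0 were positive, with a median log2 fold change of -0.33 beside -0.07 over all genes. An unadjusted p under 0.05 was reached by 4, namely Dusp4, Egr1, Fosl1 and Phlda1, which encode a dual specificity phosphatase of ERK, 2 transcription factors and a pleckstrin homology domain protein. Fosl1 was at 34.7 CPM with cediranib, 76.6 and 69.7 CPM with the hydrochloride and monohydrate of regorafenib (reference 8.04, 130 and 227 CPM as lowest, median and highest). It was at 33.7 CPM with dovitinib, 101 CPM with apatinib and 201 CPM with masitinib (reference 4.14, 105 and 283 CPM), and at 66.7, 88.3 and 111 CPM with NVP-ACC789, NVP-BAW2881 and SAR131675 (reference 0, 111 and 296 CPM). Dovitinib and cediranib were therefore among the lowest of their plates, at ranks 84 of 87 and 40 of 41, and masitinib was the second highest of 87.

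Phlda1 was at 49.1 CPM with cediranib and 40.8 CPM with dovitinib, ranks 40 of 41 and 86 of 87, against reference medians of 163 CPM on plate 3 and 135 CPM on plate 2. Regorafenib hydrochloride had 108 CPM and the monohydrate 135 CPM, apatinib 166 CPM, masitinib 177 CPM, NVP-ACC789 119 CPM, NVP-BAW2881 93.1 CPM and SAR131675 163 CPM. Ccnd1, which encodes cyclin D1, ranked 82 of 87 with dovitinib, and was at 806 CPM with cediranib, rank 38 of 41. With masitinib Ccnd1 was at 1985 CPM, rank 4 of 87, and Spred1, a RAS pathway inhibitor, was at 118 CPM, rank 3. Well by well, the list's median log2 fold change was -0.89 with cediranib, -0.79 with dovitinib, -0.77 and -0.71 with the hydrochloride and monohydrate of regorafenib. It was -0.27 with NVP-BAW2881, -0.19 with NVP-ACC789, -0.09 with apatinib, 0.09 with SAR131675 and 0.28 with masitinib, beside medians over all genes of -0.02 to -0.07. With genes of 0 counts set at a floor of 3 counts, the medians were -0.79 for cediranib, -0.53 for the hydrochloride and -0.42 for the monohydrate of regorafenib. No member was called in any of these 9 comparisons.

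**Figure D2:**
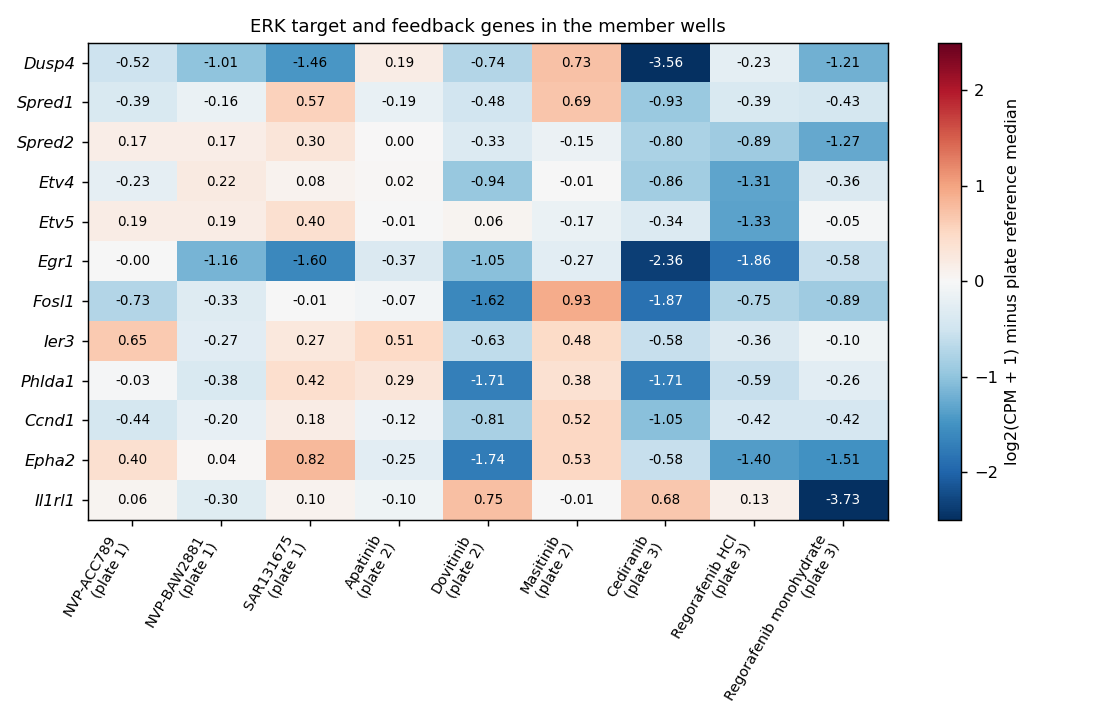
Log2(CPM + 1) minus the median of the plate's reference wells for 12 ERK target and feedback genes (down) in the 9 drug wells (across), printed in each cell, with blue below and red above the reference and the colour scale ending at 2.5 in either direction. The cediranib, dovitinib and regorafenib columns are mostly blue and the masitinib column mostly red.

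The reference wells hold many active compounds, so the 3 drug wells of plate 3 were also compared with its 5 bC8FAE wells, a comparison chosen after seeing the data. Cediranib then had 120 called genes of 5183 (2.32%), with 65 higher (1.25%) and 55 lower (1.06%). At an unadjusted p under 0.05 there were 633 (12.2%). The called genes included 5 collagen genes and 4 smooth muscle genes that were higher, and Spp1, the neurofilament genes Nefl and Nefm, 2 ERK targets and the collagen gene Col18a1 that were lower. The 5 bC8FAE wells had totals of 119295 to 505914 counts, and the 4th stood apart with the lowest total and 1.95% mitochondrial counts. Without it cediranib had 247 called genes, and leaving out another bC8FAE well gave 55 to 108.

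Cxcl14, a chemokine of fibroblasts and epithelia on chromosome 13 (mm10, 56288643 to 56296551, minus strand), rose most. It was at 445 CPM with cediranib, against 7.91, 13.0, 0, 8.38 and 30.7 CPM in the bC8FAE wells, a log2 fold change of 5.16 ± 0.39 (SE, 1 well against 5; adjusted p = 2.8e-07). It was at 49.5 and 20.5 CPM with the hydrochloride and monohydrate of regorafenib. Only the cediranib well and the hydrochloride well lay above all 5 bC8FAE wells. Of 24 fibroblast genes tested, 7 were called higher and 0 lower, with a median of 0.53 beside -0.01 over all genes. Col5a2, a chain of collagen V, was at 220 CPM with cediranib against 26.1 to 43.5 CPM (log2 2.56 ± 0.28). Dcn, the proteoglycan decorin, was at 237 CPM against 27.8 to 67.1 CPM (2.54 ± 0.30), Col1a1 at 419 CPM against 90.9 to 251 CPM (1.83 ± 0.26) and Col1a2 at 673 CPM against 172 to 369 CPM (1.61 ± 0.25). Col12a1, a collagen that sits on fibrils and is not on that list, was at 335 CPM against 35.6 to 64.0 CPM (2.81 ± 0.25). In all 5 the cediranib well lay above every bC8FAE well. Col3a1 was called higher as well (1.29 ± 0.31), whereas Col18a1, a collagen of basement membranes, was called lower (-1.84 ± 0.32, adjusted p = 0.0029), both named after their values were seen.

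Of 14 smooth muscle genes tested, 4 were called higher and 0 lower, with a median of 0.19. Acta2, smooth muscle actin, was at 607 CPM with cediranib against 94.9, 113, 149, 176 and 115 CPM in the bC8FAE wells (log2 2.33 ± 0.23, adjusted p = 6.5e-06). Myl9, a myosin light chain, was at 243 CPM against 53.1 to 75.4 CPM (1.98 ± 0.24), Tagln, transgelin, at 121 CPM against 25.6 to 41.9 CPM (1.97 ± 0.32) and Fhl1, a LIM domain protein, at 63.6 CPM against 8.38 to 29.6 CPM (1.94 ± 0.50). Acta2 was at 342 CPM with regorafenib hydrochloride and 160 CPM with the monohydrate, and neither was called. Tagln overlaps Pcsk7 on the opposite strand. Fhl1 missed the threshold under 4 of 8 alternatives, DESeq2 among them (adjusted p up to 0.104). The other genes among the 10 that rose most were Serpina3g, a serine protease inhibitor (log2 3.25 ± 0.77), the receptors S1pr3 for sphingosine phosphate (2.49 ± 0.35), Ackr3 for chemokines (2.47 ± 0.53) and Fzd1 for Wnt (2.43 ± 0.49), and the ligand Wnt4 (2.26 ± 0.31). Penk also rose with cediranib in this comparison (1.41 ± 0.27, adjusted p = 0.00706), as did Ada (2.13 ± 0.41) and Hspb8 (1.55 ± 0.23), the only called gene of 12 heat shock genes, and Crabp2, a retinoic acid binding protein (1.46 ± 0.38), the only one of 7 retinoid genes. Crabp2 missed the threshold under 4 of 8 alternatives (adjusted p up to 0.152) and Serpina3g under 3 of 8. DESeq2 did not call Ackr3 or Fzd1, and Ackr3 was tested under only 3 alternatives.

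Spp1, on chromosome 5 (mm10, 104435118 to 104441050, plus strand), was at 66.4 CPM with cediranib, against 2265, 2302, 2517, 2003 and 1254 CPM in the bC8FAE wells, a log2 fold change of -4.91 ± 0.52 (adjusted p = 1.5e-05). The regorafenib wells had 360 and 480 CPM, a mean log2 fold change of -2.27 ± 0.30 (adjusted p = 0.0023), and Spp1 was the only gene called for regorafenib (0.0193% of 5183). All 3 drug wells lay below every bC8FAE well. Without the 4th bC8FAE well regorafenib had 36 called genes, and without the first Spp1 missed the threshold (adjusted p = 0.0577) and 0 genes were called.

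Of 7 genes of a neural list, 3 were called lower with cediranib and 0 higher, with a list median of -2.17. Nptx1, a secreted pentraxin, was at 11.6 CPM with cediranib against 87.0 to 143 CPM in bC8FAE wells (log2 -3.18 ± 0.52), and Nefl, the light neurofilament subunit, was at 11.6 CPM against 28.1 to 139 CPM (-3.10 ± 0.81). Nefm had 2 counts with cediranib, a ratio of 0.132 to the summed bC8FAE wells with a 95% counting interval of 0.0157 to 0.492. Nefl and Nefm each missed the threshold under 5 of 8 alternatives, with adjusted p up to 0.161 for Nefl and 0.0967 for Nefm, while Nptx1 passed under all 8. The whole list of 10 genes summed to 199 CPM with cediranib, 360 and 402 CPM with regorafenib and 407 to 595 CPM in bC8FAE wells, and Dcx and Elavl3 were at 0 in all 8 wells. Whether other cells had a part in this was not tested. Of 8 ERK targets tested, 2 were called lower and 0 higher, 6 had an unadjusted p under 0.05, 0 were positive and the median was -0.89. Fosl1 was at 34.7 CPM with cediranib against 130, 152, 132, 193 and 110 CPM (-1.95 ± 0.38, adjusted p = 0.0076), and Phlda1 at 49.1 CPM against 136, 148, 144, 184 and 138 CPM (-1.53 ± 0.32, adjusted p = 0.0136). DESeq2 did not call Phlda1 (adjusted p = 0.153), which passed under the other 7 alternatives. Fosl1 overlaps Ccdc85b on the opposite strand, so its counts are uncertain. For regorafenib 0 of 8 were called, 0 were positive and the median was -0.60.

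Among genes called lower, 6 had 0 counts in the cediranib well. Taking 3 counts in that well as the floor, Dynap was at least 4.81-fold lower than in the summed bC8FAE wells, Ank, a pyrophosphate transporter, 4.19-fold, Ereg, the EGF receptor ligand epiregulin, 3.88-fold, Ano1, a chloride channel, 3.82-fold, 1700012B09Rik 3.64-fold and Nrcam, a neuronal adhesion molecule, 3.33-fold. Neto2, Syndig1 and Esam had 1, 1 and 2 counts, with ratios of 0.0614 (95% counting interval 0.00154 to 0.351), 0.0702 (0.00176 to 0.403) and 0.0736 (0.00883 to 0.271). These intervals and floors cover counting error only. DESeq2 called none of these low-count genes. Dynap, Ank, Ano1 and Syndig1 also missed the threshold without the first bC8FAE well, and Ereg without the second. Esam, an endothelial adhesion molecule, was the only called gene of 3 endothelial genes tested. The 15 endothelial markers in the table summed to 66.4 CPM with cediranib, 108 and 131 CPM with regorafenib and 129 to 185 CPM in bC8FAE wells, with Pecam1, Tie1, Emcn, Cldn5, Erg and Robo4 at 0 in all of them. A single lysosomal gene of 22 was called lower, Ctsl (-1.24 ± 0.32), and it missed the threshold under 5 of 8 alternatives (adjusted p up to 0.140). Of 9 PPAR targets, Plin2, a lipid droplet protein, was called lower (-1.35 ± 0.29), missing it only without the first bC8FAE well (adjusted p = 0.0568). None of 6 receptor genes or 5 ligand genes was called.

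**Figure D3:**
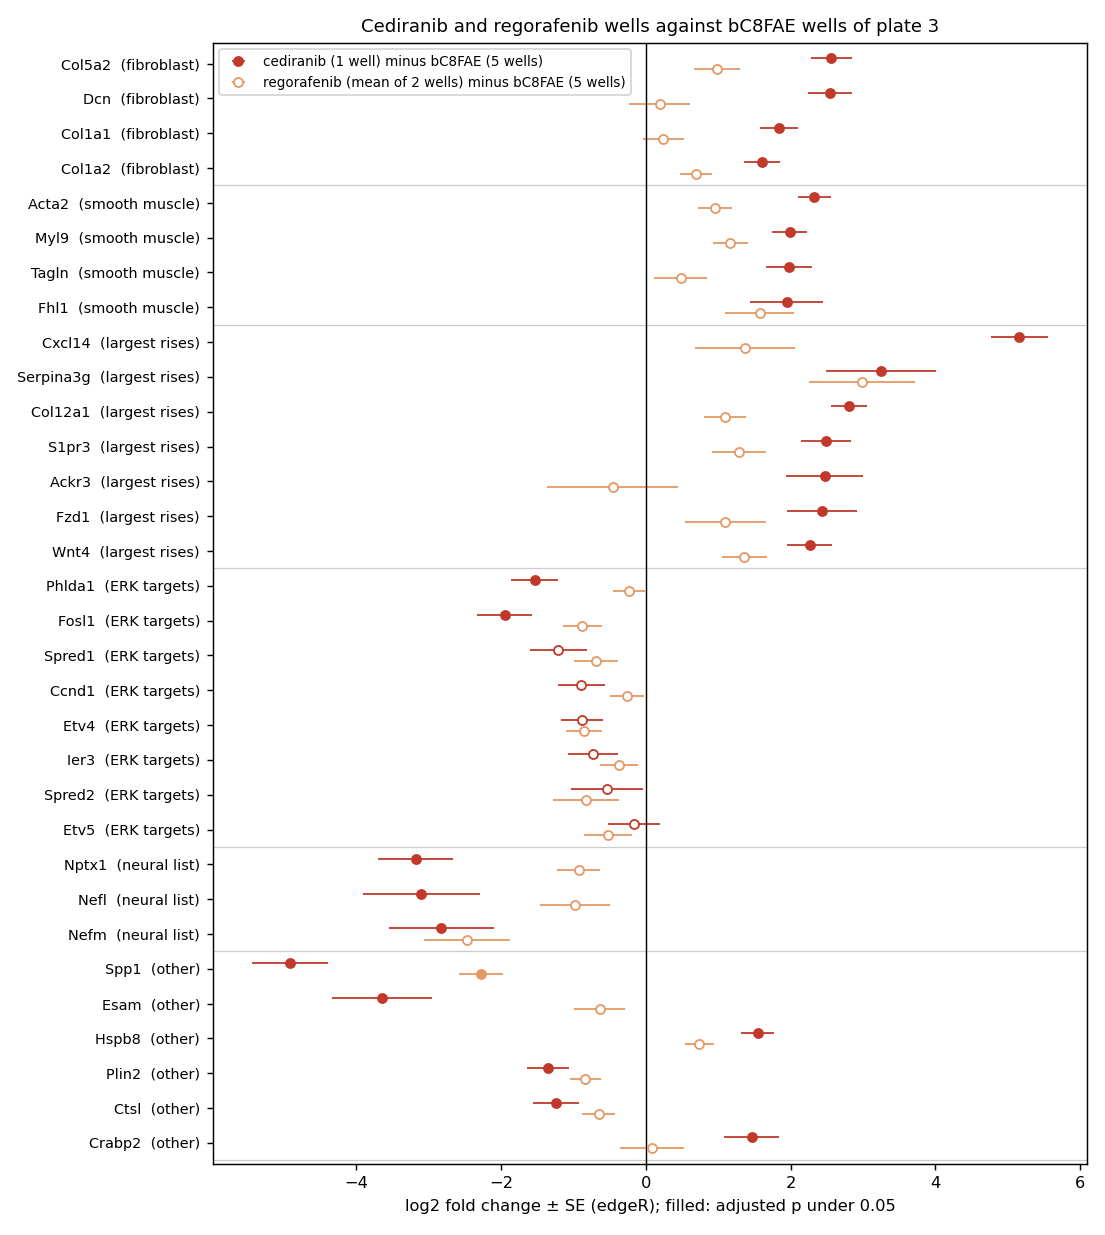
Log2 fold change ± SE (edgeR) against the 5 bC8FAE wells of plate 3 for cediranib (dark red, 1 well) and regorafenib (orange, mean of 2 wells), by gene group, with filled points at an adjusted p under 0.05 and genes of 0 or 1 count with cediranib left out. The cediranib points for the fibroblast and smooth muscle genes drawn, which are called genes, lie right of 0 and those for the ERK targets and neural genes drawn left of it, and Spp1 is the only filled point for regorafenib.

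The 120 genes were then read in the dovitinib well, which is on another plate and shares no reference well with cediranib. Of the 65 genes higher with cediranib, 64 (98.5%) had a positive log2 fold change with dovitinib against the compounds of plate 2, where 47.3% of all genes were positive, and their median was 1.02. All 55 genes lower with cediranib were lower with dovitinib (100%, beside 52.7% of all genes), with a median of -1.49. An unadjusted p under 0.05 in that direction was reached by 31 of the 65 and 41 of the 55. The exception was Igfbp3, a binding protein of insulin-like growth factors, at -0.07 with dovitinib (named after its values were seen). Apatinib had 23 of 65 positive (35.4%, beside 46.9% of all genes) and 30 of 55 negative (54.5%, beside 53.1%). Masitinib had 18 of 65 positive (27.7%, beside 47.3%) and 22 of 55 negative (40%, beside 52.7%). On plate 1, where 63 of the 65 were tested, NVP-ACC789 had 22 of 63 and 36 of 55, NVP-BAW2881 22 of 63 and 40 of 55, and SAR131675 25 of 63 and 27 of 55. Over all genes in these 3 wells, 45.5% to 48.5% were positive and 51.5% to 54.5% negative. Set against the plate median instead of the fitted reference, 44 of the 65 were higher with apatinib, 40 with masitinib and 44 with SAR131675. By that measure NVP-ACC789 had 29 of 65 higher and NVP-BAW2881 30, so the share depended on the measure. The genes are not independent of each other, so these shares carry no p-value.

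**Figure D4:**
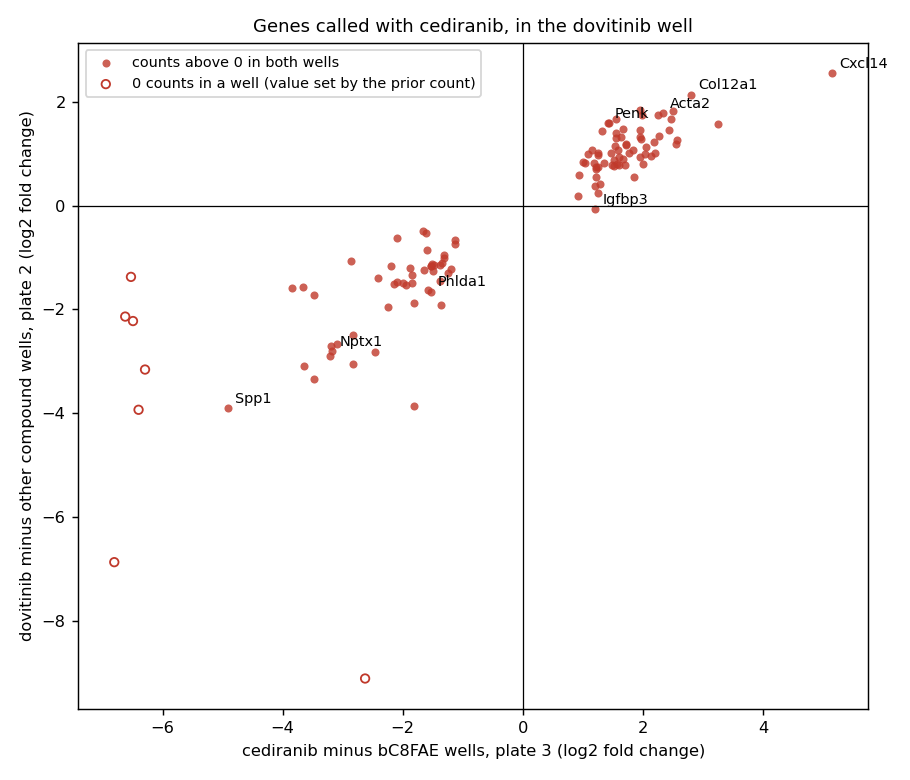
Log2 fold change of the 120 genes called with cediranib against bC8FAE wells of plate 3 (x axis) and of the same genes with dovitinib against the other compound wells of plate 2 (y axis), 1 point a gene, open where either well had 0 counts. All but Igfbp3 are on the same side of 0 on both axes.

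Leaving 12 wells of other VEGFR, PDGFR or FGFR inhibitors out of the plate 2 reference, an alternative listed with the design, gave 73 called genes of 8010 for dovitinib (0.911%), with 55 higher (0.687%) and 18 lower (0.225%), against 72 reference wells. Cxcl14 again rose most, at 304 CPM with dovitinib against 1.85, 16.6 and 127 CPM as lowest, median and highest reference well (log2 3.86 ± 0.51, adjusted p = 3.8e-07). For Cxcl14, wells left out of that reference stood above dovitinib. On the whole plate reference wells reached 1380 CPM and dovitinib ranked 4 of 87. Dovitinib ranked 3 to 5 for the other 9 of the 10 largest rises. For Lox, Gzme and Itih5 the highest of the 72 kept reference wells also lay above dovitinib, at 131 CPM for Lox. For Cxcl14, Cxcl12, Ogn, Vip, Sfrp1, Serping1 and Cpxm2 dovitinib lay above all 72. Cxcl12, the ligand of CXCR4, was at 75.9 CPM against a median of 5.73 CPM (3.33 ± 0.54), Ogn, the proteoglycan osteoglycin, at 57.6 CPM against 3.50 CPM (3.59 ± 0.66), and Vip, a neuropeptide precursor, at 56.2 CPM against 3.59 CPM (3.33 ± 0.73). Lox, which crosslinks collagen, was at 115 CPM against 8.75 CPM (3.26 ± 0.65), and Sfrp1, a secreted Wnt antagonist, at 167 CPM against 22.4 CPM (2.68 ± 0.44). Gzme, Serping1, Itih5 and Cpxm2 completed the 10 largest rises, at log2 values of 3.09, 2.88, 2.72 and 2.65. Of 27 fibroblast genes, 3 were called higher (Col1a1, Col5a2 and Lox, list median 0.52 beside -0.02 over all genes), Fgfr2 was called higher (1.57 ± 0.42, the only called gene of 9 receptors) but overlaps Ctbp2 on the same strand, so its counts are uncertain. Called higher too were Tgfb2, a TGF-beta ligand (1.85 ± 0.39), and Hspb8 (1.47 ± 0.35).

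Among the 18 genes lower with dovitinib in that comparison were Upp1, uridine phosphorylase (8.43 CPM against a median of 92.0, log2 -3.38 ± 0.92), Serinc2 (25.3 CPM against 205, -2.95 ± 0.57), Baiap2l1, a relative of Baiap2 (5.62 CPM against 43.9, -2.79 ± 0.63), Nefl (9.84 CPM against 68.0, -2.71 ± 0.73) and Slc7a11, the cystine transporter (8.43 CPM against 45.4, -2.31 ± 0.63). Phlda1 was the called gene of 13 ERK targets (40.8 CPM against 138, -1.68 ± 0.44). Car8 and Pdpk1 had 0 counts with dovitinib, at least 4.35-fold and 2.71-fold lower by the floor of 3 counts. Tspan7, Chrna1 and Runx2, the bone transcription factor, had 3 counts each, ratios of 0.133 (95% counting interval 0.0273 to 0.388), 0.138 (0.0285 to 0.405) and 0.172 (0.0354 to 0.504).

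The genes called with dovitinib moved the same way with cediranib. Of the 73, 69 were tested with cediranib against the 38 other compounds of plate 3, where 45.1% of all genes were positive: 52 of 52 risen genes were higher and 17 of 17 fallen genes lower, 42 of the 69 at an unadjusted p under 0.05. Against the bC8FAE wells 45 of the 73 were tested and 45 had the same direction, with a median of 1.55 for the risen and -1.64 for the fallen genes, beside 49% of all genes tested there that were positive. Of those 45, 25 were called there, against 2.32% of all genes tested. The 25 are 34.2% of all 73 dovitinib genes and 20.8% of the 120 cediranib genes. In the cediranib well Cxcl12 was at 66.4 CPM, Ogn at 98.2 CPM, Lox at 92.4 CPM, Sfrp1 at 144 CPM and Vip at 34.7 CPM, rank 2 or 3 of 41 wells each. In the apatinib and masitinib wells these 5 genes stayed between 0 and 29.0 CPM. With regorafenib hydrochloride and monohydrate Cxcl12 was at 13.5 and 4.10 CPM (ranks 8 and 32 of 41) and Ogn at 9.01 and 4.10 CPM (6 and 16). Lox was at 22.5 and 24.6 CPM (8 and 7), Sfrp1 at 27.0 and 12.3 CPM (16 and 37) and Vip at 4.50 and 12.3 CPM (15 and 6).

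Counted against the median of their own plate, the 120 cediranib genes ordered the wells. Dovitinib had 119 of 120 on the cediranib side, sharing rank 2 of 87, regorafenib hydrochloride had 98 (rank 4 of 41) and the monohydrate 93 (rank 6). NVP-BAW2881 had 74 (rank 15 of 90), apatinib 71 (rank 22 of 87), NVP-ACC789 67 (rank 25), SAR131675 65 (rank 30) and masitinib 54 (rank 46 of 87). Other compounds gave counts as high. On plate 2 they were the FGFR inhibitors erdafitinib (120) and FIIN-2 (119), and UNC2025 (117), ON123300 (116) and GNF-7 (112). On plate 1 they were CCT196969 (120) and the MEK inhibitors GDC-0623 (118) and trametinib (112), followed by BX517 (109) and R788 (103). On plate 3 they were the RAF inhibitor LY3009120 (115) and the ALK inhibitor brigatinib (111). The 5 oxindole wells ran from 69 with SU5402 (rank 25 of 87) to 119 with nintedanib (rank 2 of 87), with 78 for toceranib, 93 for toceranib phosphate and 94 for SU14813 (ranks 13, 9 and 7 of 90). The regorafenib counts come from the plate that chose the genes and the cediranib count of 120 follows from the choice.

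**Figure D5:**
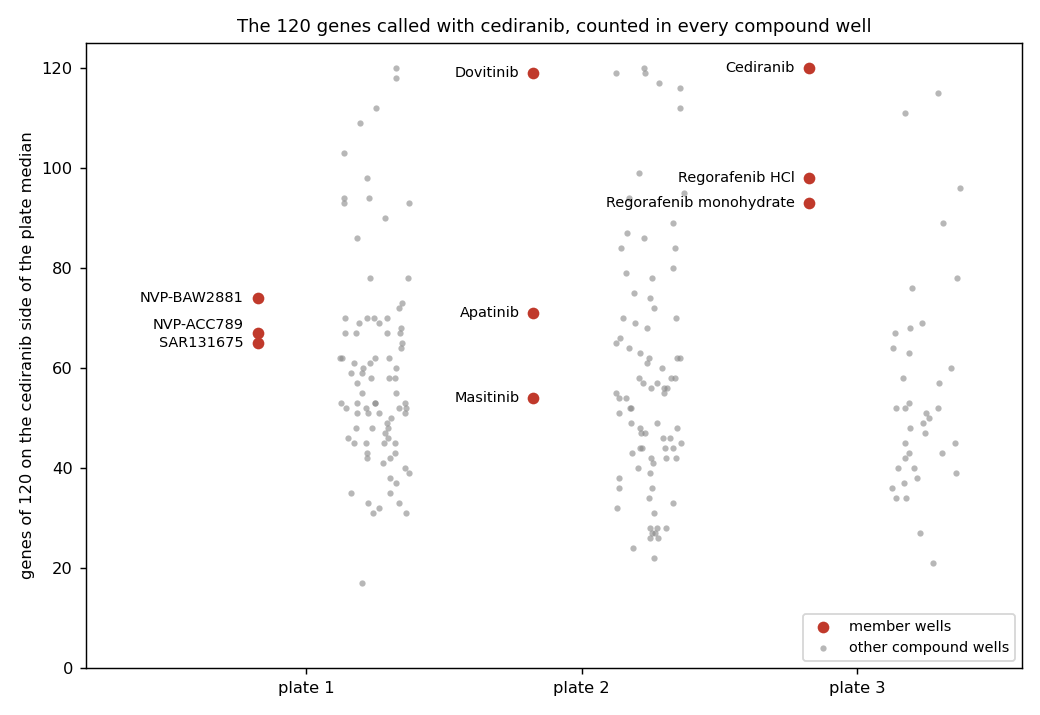
Number of the 120 genes called with cediranib that lie on the cediranib side of the plate median (y axis) in each drug well (red, named) and each other compound well (grey), by plate. Dovitinib at 119 sits among the top wells of plate 2, apatinib (71) and masitinib (54) lie far below it, and cediranib's own 120 follows from how the genes were chosen.

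All 36 pairs of the 9 wells were compared gene by gene, with p-values adjusted over genes and pairs, and 0 of the 36 had a called gene (DESeq2 also gave 0). The smallest adjusted p was 0.148, for Ada in NVP-ACC789 against cediranib (log2 -5.80, 95% interval -8.02 to -3.58). Genes with an unadjusted p under 0.05 were fewest between dovitinib and cediranib, 124 (1.75%), and most between masitinib and cediranib, 429 (6.07%). For dovitinib minus cediranib the difference was 0.16 for Penk (95% interval -0.93 to 1.25), -0.07 for Hspb8 (-1.35 to 1.21), 1.32 for Spp1 (-2.22 to 4.85) and -1.17 for Cxcl14 (-5.43 to 3.10). That no difference was called between a quinolinone and a quinazoline cannot show that they act alike, since none of the 36 pairs had a call. The intervals for Spp1 and Cxcl14 span more than 6 log2 units. Between quinazoline and diaryl urea, cediranib against the regorafenib forms, 237 genes (hydrochloride) and 271 genes (monohydrate) had an unadjusted p under 0.05. Doses are not given, so that these pairs cannot be said to have been at matched doses.

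Within the smaller fit with the bC8FAE wells, the 3 pairs of plate 3 gave 1 called gene. Cxcl14 was higher with cediranib than with regorafenib monohydrate by a log2 value of 4.40 (95% interval 3.02 to 5.79, adjusted p = 0.0348 over genes and pairs), and than with the hydrochloride by 3.17 (1.97 to 4.36, adjusted p = 0.0726). Dcn and Col12a1 also differed from the monohydrate by 3.23 (2.10 to 4.37) and 2.33 (1.51 to 3.16), each with an adjusted p of 0.0525. The call for Cxcl14 was lost without the first, the second or the fifth bC8FAE well. The hydrochloride and monohydrate of regorafenib, which hold the same active substance, had 0 called differences there and 139 genes at an unadjusted p under 0.05, with a smallest adjusted p of 0.467. Hydrochloride minus monohydrate was -0.44 for Spp1 (-1.45 to 0.57), 0.20 for Penk (-0.65 to 1.04) and 1.07 for Acta2 (0.28 to 1.86), and the last had an adjusted p of 0.998. In the 3-plate fit the mean of both regorafenib wells gave 0 called genes of 7066 against the other compounds (0 with DESeq2) and 660 (9.34%) at an unadjusted p under 0.05.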

How the data were processed

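Whole-number counts per gene and well were used as deposited by the authors. Per the submitters' processing notes, the aligner was STAR and the genome build mm10. No source used here names the counter or says how strand and molecular identifiers were treated. The table holds 20471 genes and 274 columns, of which 227 were matched by name to the plates' barcode lists and 47 were not used. No spike-in counts are in it (0 ERCC genes), and 26 gene names had been turned into dates. CPM here are the deposited counts divided by the well's total and rescaled in the usual way.

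edgeR 4.0.16 (quasi-likelihood test, TMM, filterByExpr with a minimum count of 10, Benjamini-Hochberg, R 4.3.3) was fitted per plate with a coefficient for each drug well, over 90, 87 and 41 wells, and jointly with a plate term over 218 wells and 7066 genes. The class value is the mean over compounds, with the 2 regorafenib forms sharing the weight of 1 compound. DESeq2 1.42.0, no low-count filter, a stricter minimum of 25% of the plate median, other references and leaving out wells were alternatives. The fits were also run on simulated counts. The simulated drug wells were given the same spread as the other wells, so the assumption made for a lone well was not tested. The permutation test of total counts shuffled all compound wells, before the 10% filter, within plates with a fixed seed, in Python 3.11.15. Gene coordinates come from the mm10 annotation GENCODE vM21.

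Genes were named by rule: the 10 largest rises and falls among called genes averaging 10 CPM or more in the drug or reference wells, up to 4 called members of each list, and all receptors, ligands and ERK targets measured. The compounds and gene lists were chosen with earlier results of these data known. Of the genes called for the 8 compounds together, 1 is not reported here.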

Additional observations from a re-analysis of the deposited data

Results flagged for a closer look

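Values were set apart where 1 well's gap to its nearest neighbour, divided by the range of its group, passed Dixon's 95% critical value. Chance does this in about 1 in 20 groups, and 6 of 50 groups tested passed it. Of these, 4 concern the 4th bC8FAE well, which had the lowest total count of the 5: Ereg (gap ratio 0.881), Col1a1 (0.849), Phlda1 (0.764) and the mitochondrial share (0.825, at 1.95%), all highest in that well. In the 3rd bC8FAE well Nefm stood apart (0.821). Among the 9 drug wells the difference of Tyk2 from its plate's median stood apart for regorafenib hydrochloride (0.546), where Tyk2 had 0 counts.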

How the results depend on the processing

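Counts of called genes depended on the processing more than directions did, for the genes followed, of which 0 reversed under any alternative run. Followed were the genes called for the 8 compounds together and those named by rule for cediranib against bC8FAE. Penk with dovitinib, Ada with cediranib and Spp1 with regorafenib were followed too. Other named calls were not, among them Col3a1, Col18a1 and the dovitinib genes named from the reduced reference. Without a low-count filter, called genes numbered 2 for dovitinib, 2 for cediranib and 0 for the 8 compounds together, against 1, 1 and 12. With DESeq2 they were 5 for cediranib, 33 for the 8 compounds and 2 for their difference from the oxindoles. A reference without VEGFR, PDGFR or FGFR compounds gave 73 for dovitinib and 32 for the 8 compounds, equal weight per well gave 27 for the 8, bC8FAE wells added to the reference gave 4 for cediranib, a joint fit gave 2 for dovitinib, and a minimum of 25% of the plate median gave 1 against the oxindoles. Leaving out 1 compound gave 0 to 30 for the 8 compounds and 0 to 3 against the oxindoles. Against bC8FAE wells, cediranib had 44 with DESeq2, 199 unfiltered and 55 to 247 with 1 of those wells left out. Regorafenib hydrochloride had 1 with DESeq2, 7 unfiltered, 1 with robust estimation and 0 to 26 with a well left out, the monohydrate 1, 3 and 0 to 1 with DESeq2, unfiltered and a well left out, and their mean 13 unfiltered and 0 to 36. The plate 3 pairs had 25 unfiltered, 3 with robust estimation and 0 to 21. The causes were not tested. The mean log2 ratio of total counts ran from -0.36 to -0.17 with 1 well left out. No paired analysis was possible because each deposited sample is 1 plate and the wells compared share no replicate numbers. Single wells of about 222067 to 711507 counts limit what can be detected for genes under about 10 CPM.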
